A study of Mus musculus with 12 samples.

Results

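The 9 genes described here make, cut and bind hyaluronan, and they were chosen by symbol from the 35521 genes in the expression tables. They are the hyaluronan synthases Has1, Has2 and Has3, the precursor enzyme Ugdh, the degrading enzymes Hyal1 and Hyal2 with the hyaluronan-binding protein Cemip, and the receptors Cd44 and Hmmr. Hyaluronan is a long, unbranched sugar polymer of alternating glucuronic acid and N-acetylglucosamine. It is spun out through the plasma membrane by the synthases from UDP-sugars, and it is broken down outside the cell, at the cell surface and in lysosomes. In mammary carcinoma it is a major component of the matrix around tumor cells, where CD44 is its best known receptor.

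RNA was sequenced from 4T1 cells, a mouse mammary carcinoma line of the Balb/C strain, in 3 groups of 4 libraries. Tu-Gr1+CD11b+-primed cells (Tu-primed) had shared medium for 48 h, across a Transwell membrane with pores of 0.4 µm, with Gr1+ cells taken magnetically from 4T1 tumors. Spl-Gr1+CD11b+-primed cells (Spl-primed) had been kept in the same way with Gr1+ cells from the spleens of tumor-bearing mice, and parental 4T1 cells had no Gr1+ cells. The labels place the isolation of the Gr1+ cells at day 21 after tumor injection, and the sources used here do not give the age of the mice. A Gr1+ selection takes neutrophils and monocytic cells together, and 4T1 is a single cell line. No label says that the libraries of a group came from separate cultures or animals, so the p-values measure the spread between these libraries, which may be technical.

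The libraries held between 24566183 and 31637755 estimated read counts, with a median of 27277534. Spl-primed library 3 stood apart from the rest of its group, and parental libraries 3 and 4 both differed from parental libraries 1 and 2, library 4 the more, so called differences of the hyaluronan genes are also given without these libraries, while the wider gene lists are given over all 12. All 7 epithelial markers, among them Epcam and Krt8, were present in every group, with a summed level of 1870 to 2280 in Tu-primed, 2360 to 2540 in Spl-primed and 2640 to 3910 CPM (counts scaled by library size) in parental libraries. Of 12 granulocyte markers, Retnlg, Mmp8, Camp, Ngp, Elane and Mpo were at 0 in all 12 libraries, and the summed level of the list was 6.28 to 11.4 CPM in Tu-primed, 4.64 to 6.79 in Spl-primed and 5.36 to 6.5 in parental libraries. Ltf and S100a8 made up most of the Tu-primed sum, and both were called higher in Tu-primed than in Spl-primed cells. Of 10 leukocyte markers, Tyrobp and Adgre1 were at 0 throughout, and the summed level of the list lay between 3.3 and 4.5 CPM in every library. Of 6 fibroblast markers, Col3a1 and Lum were at 0 throughout, while Pdgfra, at 86.9 ± 8.83 CPM in Tu-primed, 56.4 ± 10.2 in Spl-primed and 48.9 ± 5.64 in parental cells (SD, n = 4), carried nearly the whole of that list. The part of Ltf, S100a8 and Pdgfra in the results for the hyaluronan genes was not tested.

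The synthases are encoded by 3 genes of related sequence, and the share of reads that could be moved between them sets how far their levels can be told apart. Their coding sequences (stop codon left out) were 1749 bases for Has1, 1656 for Has2 and 1662 for Has3 in GENCODE M21. Aligned pairwise, Has2 and Has3 were identical at 68.8% of positions, Has1 and Has3 at 68.1%, and Has1 and Has2 at 62.6%. The longest run shared by any pair was 23 bases, between Has2 and Has3, and no word of 31 bases occurred in more than 1 of the 3 coding sequences. Windows of 60 coding bases were compared where all 3 genes aligned without a gap and within a single exon. The most alike of these reads as follows, 5′ to 3′, with capitals at the 16 positions where the 3 genes are not all equal. It lies in Has1 at chr17:17844182-17844241 (minus strand), in Has2 at chr15:56668214-56668273 (minus strand) and in Has3 at chr8:106878220-106878279 (plus strand), all in GRCm38.
Has1: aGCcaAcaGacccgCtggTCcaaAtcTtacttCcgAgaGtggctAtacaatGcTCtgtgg
Has2: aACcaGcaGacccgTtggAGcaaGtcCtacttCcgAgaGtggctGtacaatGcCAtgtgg
Has3: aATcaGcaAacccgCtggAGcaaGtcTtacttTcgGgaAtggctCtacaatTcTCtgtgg

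Has2 was the most abundant synthase. Its level rose from parental to Spl-primed and again to Tu-primed cells, that of Has3 was lower in Tu-primed than in parental cells, with a difference from Spl-primed cells at the threshold that most alternatives lost, and Has1 was close to absent. Ugdh and Cemip rose in the same order as Has2. Cd44 and Hmmr did not pass the test in any comparison. The plot of CPM by library shows these values.

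**Figure D1:**
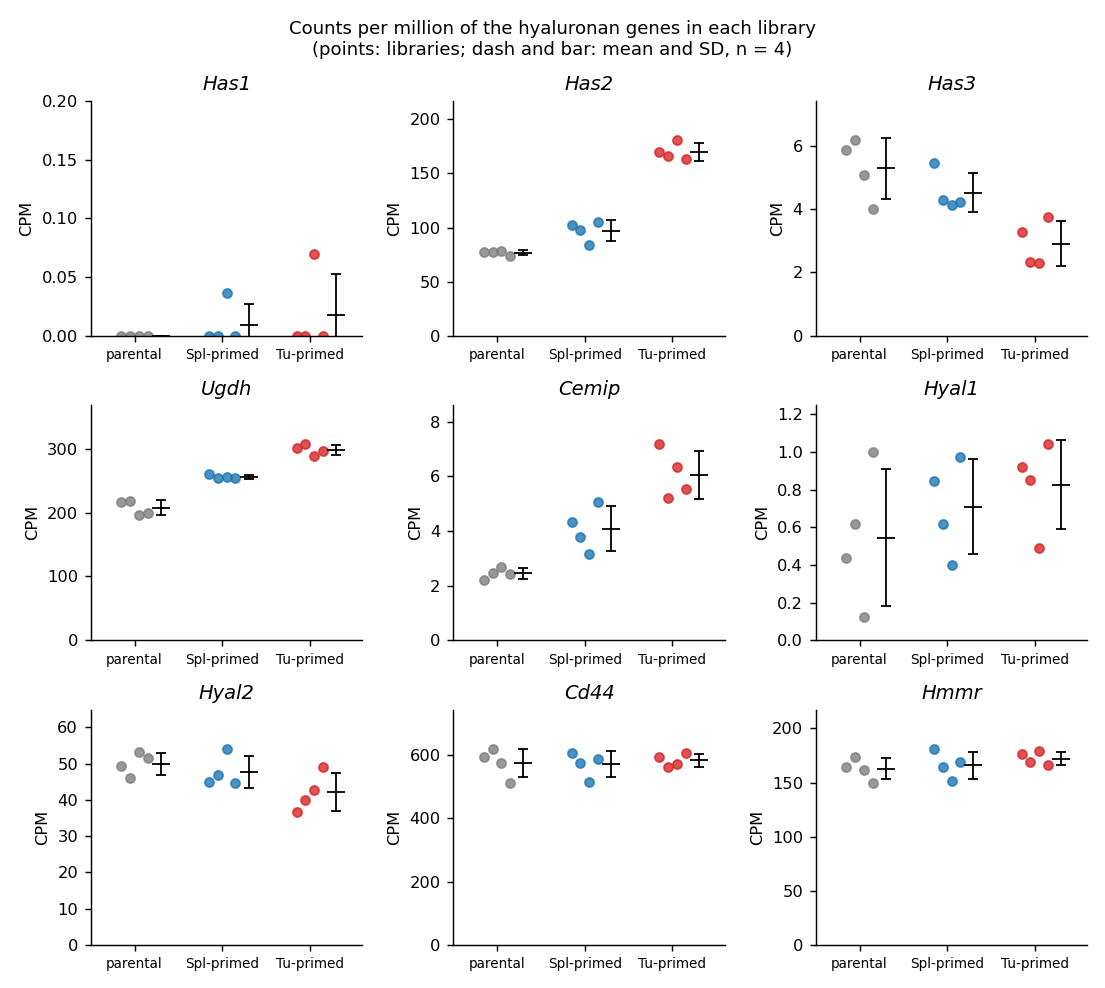
Level of each gene in CPM (counts scaled by library size, linear axis from 0) in the 4 parental, 4 Spl-primed and 4 Tu-primed libraries; points are libraries, and the dash and bar give the mean and SD. The 4 Tu-primed libraries lie above all others for Has2, Ugdh and Cemip and below all others for Has3, while the groups overlap for Hyal1, Hyal2, Cd44 and Hmmr.

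Differences were tested with edgeR's quasi-likelihood test on counts, fitted to all 12 libraries with 12555 genes tested, and a gene was called at a Benjamini-Hochberg adjusted p under 0.05. Has1 was below the filter on low counts, so 8 of the 9 genes were tested. Between Tu-primed and Spl-primed cells, 3 of the 8 were called higher and 1 lower, where 4.66% of all genes tested were called higher and 2.97% lower (7.63% in all). Between Tu-primed and parental cells, 3 were called higher and 2 lower, against 31.2% and 28.0% of all genes (59.2% in all), so a share of 5 in 8 is near the background. Between Spl-primed and parental cells, 3 were called higher and 0 lower, against 25.7% and 22.5% (48.2% in all). In the lower direction of this comparison, none of the 8 genes had an unadjusted p under 0.05 in edgeR, and DESeq2 and limma-voom also called 0 lower. The median log2 fold change of the 8 genes was 0.13, 0.30 and 0.17 in the 3 comparisons, beside -0.01, 0.02 and 0.02 over all genes tested. The comparisons with parental cells share the parental libraries, so they are not independent of each other. The plot of log2 fold changes gives all 24 differences.

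**Figure D2:**
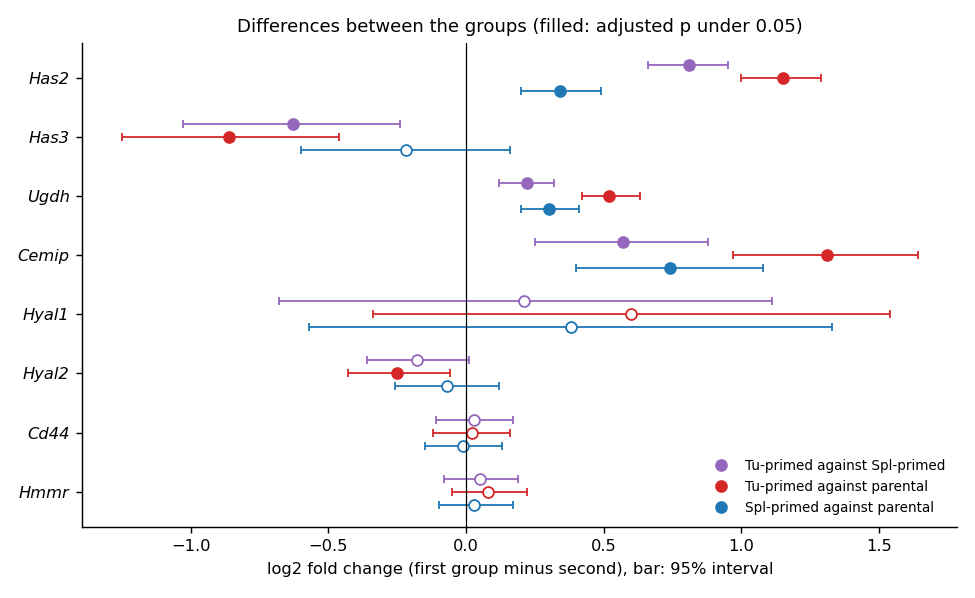
Log2 fold change of the 8 genes tested (x axis, first group minus second) in the 3 comparisons; bars are 95% intervals, and filled points passed an adjusted p of 0.05 in edgeR's quasi-likelihood test. Has2, Ugdh and Cemip lie to the right of 0 in all 3 comparisons, and the points of Cd44 and Hmmr lie between -0.01 and 0.08.

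Has2 (ENSMUSG00000022367, chr15:56665627-56694539, minus strand) encodes the synthase that makes long hyaluronan chains and is required for embryonic development. Its level was 170, 166, 181 and 163 CPM in the Tu-primed libraries, 102, 97.5, 84.0 and 105 CPM in the Spl-primed libraries, and 77.2, 77.1, 78.6 and 73.7 CPM in the parental libraries. The 3 groups did not overlap, and the lowest Tu-primed library lay well above the highest Spl-primed one. Group means were 170 ± 8.03, 97.2 ± 9.39 and 76.7 ± 2.09 CPM (SD, n = 4 each), from 1844 to 5182 counts per library. Has2 was 1.75-fold higher in Tu-primed than in Spl-primed cells (log2 fold change 0.81, SE 0.07, edgeR adjusted p = 1.14e-05). Against parental cells it was 2.22-fold higher in Tu-primed cells (log2 fold change 1.15, SE 0.07, edgeR adjusted p = 5.7e-08). In Spl-primed cells it was 1.27-fold higher than in parental cells (log2 fold change 0.34, SE 0.07, edgeR adjusted p = 0.000941). Without Spl-primed library 3 and parental library 4, the log2 fold changes were 0.76, 1.13 and 0.38, and all 3 calls held, as they did without parental libraries 3 and 4 (0.83, 1.15 and 0.32). In bulk RNA, more cells that express a gene and more of its RNA per cell cannot be told apart.

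Has3 (ENSMUSG00000031910, chr8:106870242-106884566, plus strand), which makes shorter chains, was measured at 60 to 174 counts per library. Its level was 3.26, 2.33, 2.31 and 3.75 CPM in Tu-primed, 5.46, 4.29, 4.14 and 4.21 CPM in Spl-primed, and 5.86, 6.18, 5.07 and 4.00 CPM in parental libraries. All 4 Tu-primed libraries lay below all 8 others, while Spl-primed and parental libraries overlapped. Has3 was 1.81-fold lower in Tu-primed than in parental cells (log2 fold change -0.86, SE 0.18, edgeR adjusted p = 0.00117). The difference between Tu-primed and Spl-primed cells was at the threshold (log2 fold change -0.63, SE 0.18, edgeR adjusted p = 0.0499), and its call was lost in 14 of the 25 alternatives run, with adjusted p between 0.013 and 0.163. Spl-primed and parental cells differed by -0.22 on the log2 scale (95% interval -0.60 to 0.16), which did not pass. Leaving out Spl-primed library 1, the highest of its group, gave -0.53 between Tu-primed and Spl-primed cells (edgeR adjusted p = 0.137). Between Tu-primed and parental cells the call held without Spl-primed library 3 and parental library 4 (-0.96) and without parental libraries 3 and 4 (-1.03), and between the primed groups it held at -0.66 and -0.61.

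Has1 (ENSMUSG00000003665, chr17:17843323-17855205, minus strand) had 2 counts in Tu-primed library 3, 1 count in Spl-primed library 3 and 0 in the other 10 libraries, where a count of 0 allows up to 3 counts. No difference was detectable at this depth. Compared per length, as TPM (counts divided by transcript length and scaled to a fixed total per library) within a library, Has2 made up 98.5, 98.9, 98.9 and 98.1% of the summed synthase level in Tu-primed libraries. The share was 95.8, 96.8, 95.9 and 96.8% in Spl-primed and 94.1, 93.9, 94.8 and 95.2% in parental libraries. The 3 groups did not overlap in this share, which was not tested because it is a score over chosen genes. By CPM, Spl-primed library 1 and parental library 4 met at 94.9%, so the separation of these groups rests on TPM. Its means were 98.6 ± 0.367, 96.3 ± 0.545 and 94.5 ± 0.633% (SD, n = 4).

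Ugdh (ENSMUSG00000029201, chr5:65413221-65435949, minus strand) encodes UDP-glucose dehydrogenase, which makes the UDP-glucuronic acid that the synthases polymerize and that other glycosaminoglycans also use. Its level was 301, 307, 289 and 297 CPM in Tu-primed, 261, 254, 256 and 255 CPM in Spl-primed, and 217, 218, 197 and 199 CPM in parental libraries. No library of any group reached the range of another group. Ugdh was 1.44-fold higher in Tu-primed than in parental cells (log2 fold change 0.52, SE 0.05, edgeR adjusted p = 1.6e-06) and 1.23-fold higher in Spl-primed than in parental cells (log2 fold change 0.30, SE 0.05, edgeR adjusted p = 0.000222). Between Tu-primed and Spl-primed cells it was 1.16-fold higher (log2 fold change 0.22, SE 0.05, edgeR adjusted p = 0.0125). That last call was lost without Tu-primed library 2 (edgeR adjusted p = 0.0556) and with offsets for transcript length in DESeq2 (adjusted p = 0.0692). With these offsets the difference between Spl-primed and parental cells was 0.20, at the threshold (DESeq2 adjusted p = 0.05 after rounding, still called). Without parental libraries 3 and 4 the log2 fold changes, in the order Tu-primed against parental, Spl-primed against parental and Tu-primed against Spl-primed cells, were 0.47, 0.23 and 0.24. Without Spl-primed library 3 and parental library 4 they were 0.51, 0.27 and 0.24, and every call held in both fits.

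Most Ugdh counts fell on the protein-coding transcript Ugdh-201, at 7323 to 7942 estimated counts in Tu-primed, 6484 to 7729 in Spl-primed and 4484 to 5980 in parental libraries. Ugdh-202, a longer transcript annotated as retaining introns, was chosen for description after its values were seen. It had 193 to 308 estimated counts in Tu-primed and 200 to 226 in Spl-primed libraries but 17 to 52 in parental libraries, so the primed groups overlapped each other and neither overlapped the parental group. Together the Ugdh transcripts that retain an intron took 6.06 ± 0.856% of the counts in Tu-primed, 5.62 ± 0.965% in Spl-primed and 3.75 ± 0.732% in parental cells (SD, n = 4). Spl-primed library 3, at 4.37%, lay below parental library 1, at 4.65%. Ugdh-202 keeps 3 introns of Ugdh-201, of which the shortest is 91 bases long, at chr5:65423359-65423449. It is shown 5′ to 3′ in capitals, with 15 bases of exon on either side, because reads across these ends separate the retained form from the spliced form.
Ugdh-202: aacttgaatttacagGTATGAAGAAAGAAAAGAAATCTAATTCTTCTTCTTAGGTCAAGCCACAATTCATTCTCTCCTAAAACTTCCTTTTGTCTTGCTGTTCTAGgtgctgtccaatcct
The deposited values assign reads to transcripts by a statistical estimate, and reads in the exons that the forms share cannot be told apart.

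Cemip (ENSMUSG00000052353, chr7:83932857-84086502, minus strand) encodes a secreted protein that binds hyaluronan and is needed for its depolymerization by several cell types. It was a low-count gene here, at 60 to 202 counts per library. Its level was 7.17, 5.20, 6.33 and 5.55 CPM in Tu-primed, 4.33, 3.78, 3.16 and 5.08 CPM in Spl-primed, and 2.22, 2.47, 2.68 and 2.44 CPM in parental libraries. The groups did not overlap, although the highest Spl-primed library and the lowest Tu-primed library were close. Cemip was 2.47-fold higher in Tu-primed than in parental cells (log2 fold change 1.31, SE 0.16, edgeR adjusted p = 1.16e-05) and 1.67-fold higher in Spl-primed than in parental cells (log2 fold change 0.74, SE 0.16, edgeR adjusted p = 0.00181). The 1.48-fold difference between Tu-primed and Spl-primed cells passed (log2 fold change 0.57, SE 0.15, edgeR adjusted p = 0.0297) but was lost in 9 of 25 alternatives, with adjusted p up to 0.137. Without Spl-primed library 3 and parental library 4 it was 0.48 (edgeR adjusted p = 0.051), and without parental libraries 3 and 4 it was 0.59 (edgeR adjusted p = 0.0313). Against parental cells both calls held in these fits, at 1.31 and 1.38 in Tu-primed and at 0.83 and 0.79 in Spl-primed cells. Transcripts annotated as retaining an intron took 23.7 ± 5.21, 27.3 ± 3.89 and 28.6 ± 6.13% of its counts in the same order of groups (SD, n = 4), and these ranges overlapped.

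Because Has2, Ugdh and Cemip moved in the same order, the sequences before their start sites were scanned. The RefSeq promoter table used here (GRCm38.p6) held 7 of the 9 genes, Has2 and Has3 not among them. In the 250 bases before the start, on both strands, none of the 7 held TTCNNNGAA, the core letters of a STAT site, which 7.04% of 32544 promoters held. None held TGANTCA, an AP-1 type motif found in 6.73% of promoters. TATAAA occurred in 12.3% of promoters and, among the 7, in Cemip alone, from 29 to 24 bases before the start. That the STAT and AP-1 letters are not in these windows says nothing about the factors. The Cemip promoter is shown with TATAAA in capitals (chr7:84086506-84086755, minus strand), and the Ugdh promoter, entirely in lower case, without the 107 bases that GENCODE M21 places inside the gene (chr5:65435950-65436092, minus strand).
Cemip: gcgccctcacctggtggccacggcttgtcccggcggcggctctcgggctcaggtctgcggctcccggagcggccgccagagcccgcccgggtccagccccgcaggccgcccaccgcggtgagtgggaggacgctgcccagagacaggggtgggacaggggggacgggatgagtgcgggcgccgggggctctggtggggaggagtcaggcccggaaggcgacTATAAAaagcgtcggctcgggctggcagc
Ugdh: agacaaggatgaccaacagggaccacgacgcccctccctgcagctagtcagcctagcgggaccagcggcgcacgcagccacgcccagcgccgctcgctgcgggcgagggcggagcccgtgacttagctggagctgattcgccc

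Hyal2 and Hyal1 are neighbours on the plus strand of chr9, Hyal2 (ENSMUSG00000010047) at 107567945-107572779 and Hyal1 (ENSMUSG00000010051) at 107576927-107581710. HYAL2 is anchored at the cell surface and cuts long hyaluronan into fragments, and HYAL1 is the lysosomal enzyme that degrades it further. Hyal2 was measured at 36.7, 40.0, 42.7 and 49.0 CPM in Tu-primed, 44.8, 46.8, 54.0 and 44.7 CPM in Spl-primed, and 49.4, 45.9, 53.1 and 51.4 CPM in parental libraries. Tu-primed library 4 reached into the range of both other groups. Hyal2 was called 1.19-fold lower in Tu-primed than in parental cells (log2 fold change -0.25, SE 0.09, edgeR adjusted p = 0.0255), a call lost in 9 of 25 alternatives, among them leaving out Tu-primed library 1 (edgeR adjusted p = 0.0863), Tu-primed library 2 (0.0684), parental library 3 (0.0735) or parental library 4 (0.0545). Without parental libraries 3 and 4 it was -0.17 (edgeR adjusted p = 0.217), and without Spl-primed library 3 and parental library 4 it was -0.23 (edgeR adjusted p = 0.0288). The other differences, -0.18 between Tu-primed and Spl-primed cells (95% interval -0.36 to 0.01, edgeR adjusted p = 0.251) and -0.07 between Spl-primed and parental cells (-0.26 to 0.12), did not pass. Hyal1 had 3 to 30 counts per library, 0.827 ± 0.238 CPM in Tu-primed, 0.710 ± 0.254 in Spl-primed and 0.545 ± 0.365 in parental cells (SD, n = 4). Its intervals were wide, from -0.34 to 1.54 on the log2 scale between Tu-primed and parental cells, and no difference was detectable at this depth. Without Spl-primed library 3 and parental library 4, that difference was 1.06 and was called (edgeR adjusted p = 0.042).

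Cd44 (ENSMUSG00000005087, chr2:102811141-102901665, minus strand), the main cell-surface receptor for hyaluronan, was the most abundant of the 9 genes by count. Its level was 593, 563, 572 and 608 CPM in Tu-primed, 607, 576, 515 and 589 CPM in Spl-primed, and 594, 619, 575 and 512 CPM in parental libraries. The 3 groups overlapped throughout. Log2 fold changes were 0.03 between Tu-primed and Spl-primed cells (95% interval -0.11 to 0.17, edgeR adjusted p = 0.834), 0.02 between Tu-primed and parental cells (-0.12 to 0.16, edgeR adjusted p = 0.794) and -0.01 between Spl-primed and parental cells (-0.15 to 0.13, edgeR adjusted p = 0.929). The signs of the last 2 changed under some alternatives, without a call.

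CD44 protein differs by which exons of a variable region are spliced in between the constant exons. In the annotation, the standard form Cd44-203 has 9 exons and skips the whole region, while Cd44-201 carries all 10 variable exons and Cd44-207 carries 5 of them. The junction after the fifth exon separates these forms and is shown with the last 30 bases of that exon in lower case and the first 30 bases of the next exon in capitals. The next exon lies at chr2:102828542-102828610 for Cd44-203, chr2:102842261-102842377 for Cd44-207 and chr2:102848657-102848782 for Cd44-201, all on the minus strand of GRCm38.
Cd44-203: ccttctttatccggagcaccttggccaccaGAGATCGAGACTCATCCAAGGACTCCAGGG
Cd44-207: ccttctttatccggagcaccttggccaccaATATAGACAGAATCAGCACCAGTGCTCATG
Cd44-201: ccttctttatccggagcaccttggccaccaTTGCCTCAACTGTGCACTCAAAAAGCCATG
Cd44-207 took 44.8 ± 1.96, 44.9 ± 5.24 and 45.0 ± 0.810% of the Cd44 estimated counts in Tu-primed, Spl-primed and parental cells (SD, n = 4). Cd44-203 took 37.7 ± 1.29, 39.1 ± 3.53 and 41.0 ± 0.614%. Cd44-201 took 12.4 ± 0.698, 11.6 ± 1.06 and 9.43 ± 0.914%. Each of its 8 values in primed cells lay above its 4 values in parental cells, which ranged from 8.63 to 10.5%. The nearest primed value was 10.8%, in Spl-primed library 3. This separation was picked out after the values were seen and was not tested. The share of all transcripts that separate in this way was not counted. Cd44-207 overlapped between all groups, and Cd44-203 between Spl-primed and parental libraries.

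Summed over protein-coding Cd44 transcripts, the share of estimated counts on forms with at least 1 variable exon was 62.2, 63.8, 62.4 and 60.6% in Tu-primed, 59.3, 58.6, 66.2 and 59.3% in Spl-primed, and 58.2, 59.7, 59.0 and 59.0% in parental libraries. The Tu-primed libraries lay above the parental ones, and Spl-primed library 3 lay above every other library. The share was 3.27 percentage points higher in Tu-primed than in parental cells (exact permutation test, two-sided, p = 0.0286, the smallest that 4 against 4 libraries can give, and 0.0857 after adjustment over the 3 pairs of groups). Tu-primed and Spl-primed cells differed by 1.41 points (exact permutation p = 0.486) and Spl-primed and parental cells by 1.86 points (p = 0.457). Without Spl-primed library 3 these differences were 3.19 and 0.0789 points. With 4 libraries a group, a single pair of groups cannot pass after this adjustment even when its libraries do not overlap, so the adjusted values say nothing about whether the share differed. The plot of shares by library shows it beside those of Has2 and Ugdh.

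**Figure D3:**
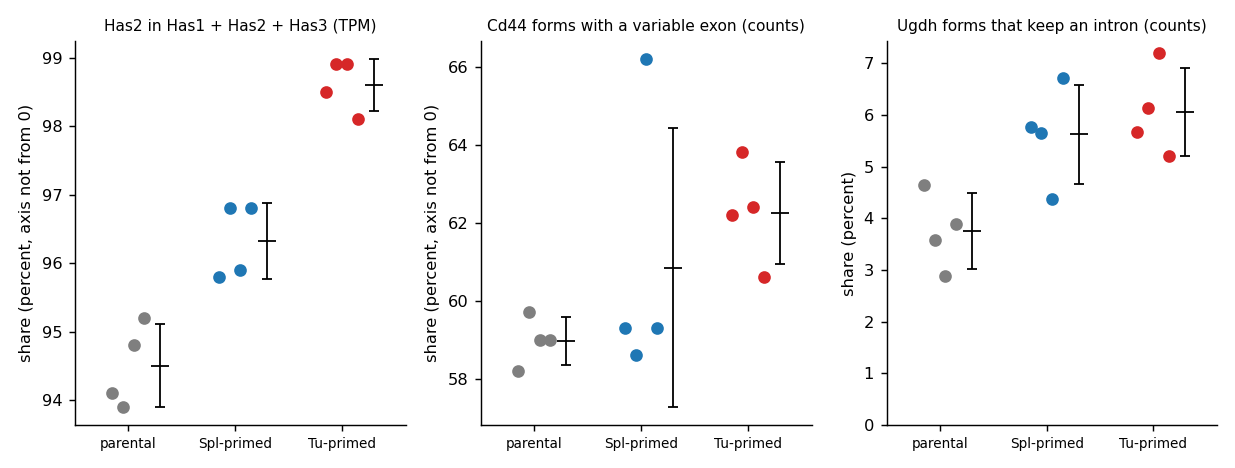
Shares in percent in each library, with mean and SD (dash and bar): Has2 in the summed TPM of the synthases (left, axis not from 0), Cd44 forms with a variable exon in the Cd44 estimated counts (middle, axis not from 0) and Ugdh forms that retain an intron in the Ugdh estimated counts (right, axis from 0). The groups are separate on the left, where Tu-primed libraries reach 98.1 to 98.9%, and in the middle Spl-primed library 3 stands at 66.2%.

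Hmmr (ENSMUSG00000020330, chr11:40701395-40733422, minus strand) encodes a hyaluronan-binding protein that acts mainly at the mitotic spindle. Its level was 176, 169, 179 and 166 CPM in Tu-primed, 181, 164, 151 and 169 CPM in Spl-primed, and 164, 174, 162 and 150 CPM in parental libraries, with overlap between all groups. Log2 fold changes were 0.05 between Tu-primed and Spl-primed cells (95% interval -0.08 to 0.19, edgeR adjusted p = 0.668), 0.08 between Tu-primed and parental cells (-0.05 to 0.22, edgeR adjusted p = 0.263) and 0.03 between Spl-primed and parental cells (-0.10 to 0.17, edgeR adjusted p = 0.701). Nearly all Hmmr counts were assigned to 1 protein-coding transcript, Hmmr-201.

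Levels of different genes were compared per length, in TPM. In Tu-primed cells, Cd44 (mean 234 TPM) and Ugdh (231 TPM) came first and overlapped each other. The main form Ugdh-201 alone had 162 to 166 TPM in Tu-primed libraries, below the 217 to 250 TPM of Cd44. This overlap therefore depends on the other Ugdh transcripts. Hmmr (66.5 TPM), Hyal2 (60.9 TPM) and Has2 (58.4 TPM) followed, each overlapping the next. Cemip (1.48 TPM) was 39.3-fold below Has2, and Has3 (0.813 TPM) and Hyal1 (0.555 TPM), which overlapped, came after it. In Spl-primed and parental cells Has2 lay apart from Hyal2 and Hmmr, at 32.1 TPM in Spl-primed and 19.2 TPM in parental cells, and Has3 (1.22 and 1.13 TPM) came before Cemip (1.02 and 0.478 TPM). The neighbours Has3 and Cemip overlapped in Spl-primed but not in parental cells. The level of Hyal2 includes short transcripts with few counts. Its main form Hyal2-201 alone had 23.7 to 36.6 TPM in Tu-primed libraries, below the 55.6 to 64.0 TPM of Has2, and 28.8 to 38.3 TPM in Spl-primed libraries, overlapping the 26.2 to 36.1 TPM of Has2. In these groups the place of Has2 beside Hyal2 depends on the short transcripts. In parental libraries Hyal2-201 alone, at 23.1 to 27.2 TPM, lay above Has2, at 15.9 to 21.2 TPM.

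**Figure D4:**
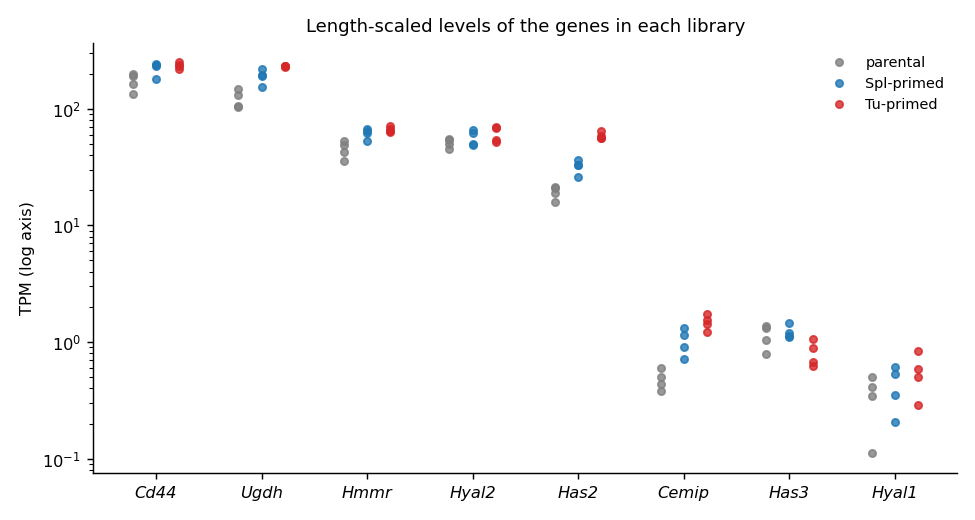
Level per length (TPM summed over transcripts, log axis) of 8 of the genes in each library, for comparison between genes within a group; Has1, at 0 in most libraries, is not drawn. Cd44 and Ugdh lie highest, Has2 reaches the range of Hyal2 in Tu-primed libraries only, and Cemip, Has3 and Hyal1 lie below 2 TPM.

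The other steps that supply UDP-sugars were followed in a list of 11 genes, from the hexokinases to Uap1. Of 10 tested, 2 were called higher and 0 lower between Tu-primed and Spl-primed cells (4.66% and 2.97% over all genes), namely Hk2 (hexokinase 2, log2 fold change 0.38, edgeR adjusted p = 0.0124) and Pgm1 (phosphoglucomutase, 0.30, edgeR adjusted p = 0.0212). Against parental cells, 4 were called higher and 3 lower in Tu-primed cells and 1 higher and 2 lower in Spl-primed cells, where 59.2% and 48.2% of all genes were called in either direction. Hk2 rose by 0.49 in Tu-primed cells, whereas Hk1 fell by 0.44 in Tu-primed and by 0.48 in Spl-primed cells on the log2 scale. Uap1, which makes UDP-N-acetylglucosamine, rose by 0.20 in Spl-primed and by 0.11 in Tu-primed cells. Gfpt1, the entry enzyme of the hexosamine branch, was not called, with 0.20 between Tu-primed and Spl-primed cells (edgeR adjusted p = 0.186). The list's median log2 fold change was 0.10, 0.09 and -0.07 in the 3 comparisons.

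Of 10 other turnover enzymes, 4 were tested. Gusb, the lysosomal β-glucuronidase that removes glucuronic acid from hyaluronan fragments, fell in all 3 comparisons, by 0.19 between Tu-primed and Spl-primed cells (edgeR adjusted p = 0.0423), by 0.44 between Tu-primed and parental cells (edgeR adjusted p = 1.25e-05) and by 0.25 between Spl-primed and parental cells (edgeR adjusted p = 0.00165). Cemip2, a cell-surface relative of Cemip at 63.8 ± 3.88, 59.1 ± 7.86 and 55.7 ± 12.2 CPM in Tu-primed, Spl-primed and parental cells (SD, n = 4), was called in none of the 3 comparisons, with log2 fold changes of 0.11, 0.20 and 0.09. Hyal3, at 2 to 10 counts per library, was not tested.

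Among 6 other receptors, Stab1, Tlr2 and Tlr4 were tested. Stab1, a scavenger receptor of the stabilin family, was called higher than in parental cells, by 0.46 in Tu-primed (edgeR adjusted p = 0.00434) and by 0.44 in Spl-primed cells (edgeR adjusted p = 0.00715), and differed by 0.01 between the primed groups. Over all genes, 59.2% and 48.2% were called in these 2 comparisons with parental cells, in either direction. Between the primed groups no receptor was called, where 7.63% of all genes were. There Tlr2 and Tlr4 had an unadjusted p under 0.05 in edgeR. They were called by DESeq2 with its size factors, and by neither limma-voom nor DESeq2 with length offsets. Of 17 genes for proteins of the hyaluronan matrix, only Vcan (versican) and Tnfaip6, which links hyaluronan to heavy chains, passed the filter on low counts. Neither was called in any comparison, beside the same 7.63%, 59.2% and 48.2% over all genes. Of 8 partners of CD44, 7 were tested. Against parental cells, 3 were called higher and 3 lower in Tu-primed and 1 higher and 3 lower in Spl-primed cells. Over all genes, 59.2% and 48.2% were called in these comparisons, in either direction. Spp1, the CD44 ligand osteopontin, rose by 0.60 in Tu-primed (edgeR adjusted p = 1.05e-06) and by 0.47 in Spl-primed cells (edgeR adjusted p = 1.53e-05), Ezr, which ties CD44 to actin, fell by 0.30 in Tu-primed and by 0.36 in Spl-primed cells, and Nf2 fell by 0.33 in Tu-primed and by 0.25 in Spl-primed cells, all against parental cells. Msn, also of the ezrin family, was not called, and no partner was called between the primed groups, where 7.63% of all genes were. Of these 7, Mmp14 and Spp1 had an unadjusted p under 0.05 in edgeR, and DESeq2 called 2 and limma-voom 0.

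Of 7 regulators of Cd44 splicing, none was called between the primed groups, where 7.63% of all genes were, 0 had an unadjusted p under 0.05 in edgeR, and DESeq2 called 0 (1 with length offsets) and limma-voom 0. Against parental cells, 3 were called higher and 1 lower in Tu-primed and 2 higher and 2 lower in Spl-primed cells, beside 59.2% and 48.2% called over all genes. Ybx1, an RNA-binding protein, fell by 0.84 in Tu-primed (edgeR adjusted p = 9.47e-06) and by 0.64 in Spl-primed cells (edgeR adjusted p = 0.000152). Esrp1, the epithelial splicing factor, rose by 0.24 in Tu-primed cells (edgeR adjusted p = 0.0135). Tra2b rose by 0.24 in Spl-primed cells (edgeR adjusted p = 0.00136) and by 0.15 in Tu-primed cells (edgeR adjusted p = 0.0203). Of 18 genes of the spindle and mitosis, listed as company for Hmmr, 0 were called between the primed groups (7.63% over all genes), 4 higher and 3 lower in Tu-primed and 4 higher and 5 lower in Spl-primed against parental cells. Over all genes, 59.2% and 48.2% were called in these comparisons. Mki67 fell by 0.40 and 0.48 in these comparisons with parental cells, and Aurka, a spindle kinase, was not called in any. Against parental cells, Plk1 fell by 0.37 in Tu-primed cells (edgeR adjusted p = 0.000124) and by 0.27 in Spl-primed cells (edgeR adjusted p = 0.00177). Cenpf fell by 0.39 in Spl-primed against parental cells (edgeR adjusted p = 0.0301). Between the primed groups, 1 of the 18 (Kif23) had an unadjusted p under 0.05 in edgeR, and DESeq2 called 1 and limma-voom 0. The plot of the wider lists gives every gene tested.

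**Figure D5:**
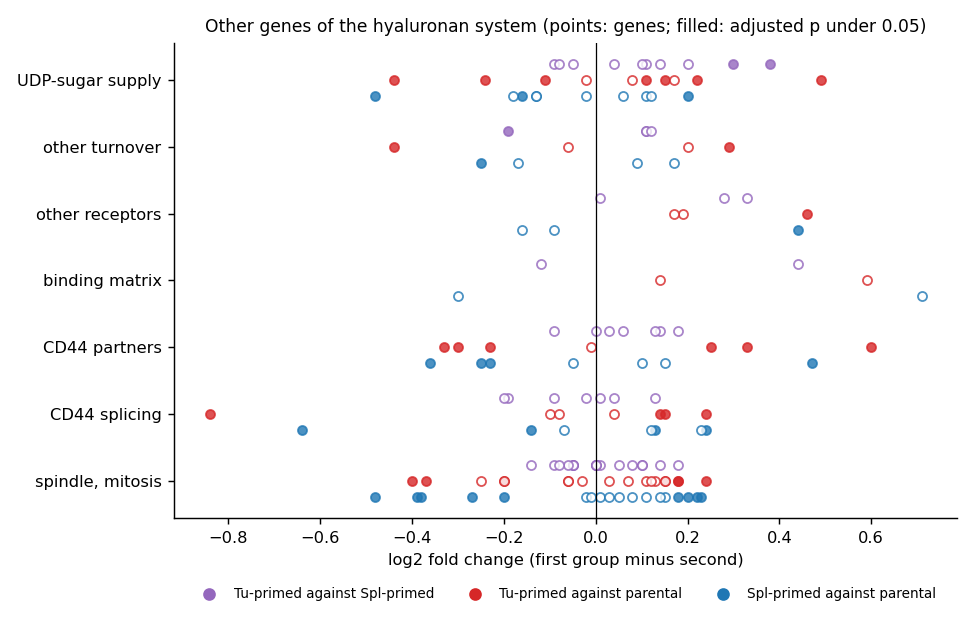
Log2 fold change (x axis, first group minus second) of every gene tested in 7 lists of the hyaluronan system, in the 3 comparisons; filled points passed an adjusted p of 0.05 in edgeR's quasi-likelihood test. Between Tu-primed and Spl-primed cells only Hk2, Pgm1 and Gusb are filled, and the lowest point overall is Ybx1 in Tu-primed against parental cells, at -0.84.

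The genes whose log2 CPM followed each member most closely over the 12 libraries were also listed. For Has2 these were Il33 (Pearson r = 0.990), Osbpl9 (0.988) and Steap4 (0.988), and for Ugdh they were Il18rap (0.993), Gsap (0.985) and Errfi1 (0.985). Dram2 (0.978), Itgb3 (0.975) and Rasa3 (0.973) followed Cemip most closely, and Nup210 (0.953), Cluh (0.946) and Ddah1 (0.943) followed Has3. For Hmmr they were Slc35a3 (0.972), Vav3 (0.960) and Ankrd28 (0.958), and for Cd44 Zfp81 (0.932), Dennd4a (0.910) and Rapgef2 (0.907). The closest to Hyal2 and Hyal1 were Cd74 (0.927) and Dlc1 (0.864). These values describe the same 12 libraries in 3 groups, and each value is among the highest over all genes tested. Part of r can come from group means and part from differences within groups, which were not separated here.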

How the data were processed

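Total RNA of 12 libraries (TruSeq Stranded) was analysed. The authors deposited, per library and Ensembl transcript, estimated counts and TPM, which the submitters' processing notes tie to Trimmomatic 0.39, Salmon 1.4.0 and GRCm38 (mm10); the annotation release is not given in the sources used here. The authors' table of normalized values was not used. Here, estimated counts were summed per gene with GENCODE M21 (0.326 to 0.419% of reads lay on transcripts absent from it), rounded, filtered with filterByExpr and tested with edgeR 4.0.16 (quasi-likelihood, TMM factors 0.88 to 1.05, 1 mean per group, Benjamini-Hochberg over 12555 genes). CPM were scaled by TMM. The SE of a log2 fold change was derived from its quasi-likelihood F, and 95% intervals from the SE and the t distribution with that test's total degrees of freedom (11.0 to 14.0). The scripts were tested on simulated data. DESeq2 1.42.0, limma 3.58.1, other scalings, filters and thresholds, and each library left out, were alternatives. Intervals and floors cover counting error or spread between libraries only. The 9 genes and the wider lists were chosen with earlier results of these data known. Named from each list were, per comparison, the 2 called genes of largest change, and uncalled known partners; Has2os was not analysed here, and 1 gene of a wider list is not reported here. Identical libraries were looked for: every pair within a group differed by more than sampling noise (chi-square per degree of freedom 3.5 to 64.6).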

Additional observations from a re-analysis of the deposited data

Results flagged for a closer look

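In groups of 4 libraries, a library far from its 3 companions (by Dixon's criterion) was looked for in 30 sets of values, of which chance gives about 1 in 20. Has3 in Spl-primed library 1 stood at 5.46 CPM, beside 4.14 to 4.29 CPM in the other 3 libraries. The Cd44 variable-exon share in Spl-primed library 3 was 66.2%, beside 58.6 to 59.3% in the others. This library also stood apart over all genes, with a chi-square per degree of freedom of 31.8 to 39.58 against its companions, which gave 3.5 to 7.63 among themselves. Parental library 4 gave 58.07 and 64.6 against libraries 1 and 2 and 17.84 against library 3, while library 3 gave 22.24 and 27.4 against libraries 1 and 2, which gave 6.01 against each other.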

How the results depend on the processing

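Has2 kept its direction and call in all 3 comparisons under the 25 alternatives run for single genes, as did Ugdh and Cemip against parental cells. Of the 3 genes called higher between Tu-primed and Spl-primed cells, 1 was left with DESeq2 and length offsets and 1 at an adjusted p under 0.01, and 0 had an absolute log2 fold change over 1. The 1 gene called lower there became 0 with RLE factors, with only the 8 libraries compared, with protein-coding transcripts only and at both stricter thresholds. The 2 called lower between Tu-primed and parental cells became 1 with DESeq2 and length offsets, protein-coding transcripts only, upper-quartile factors, an adjusted p under 0.01, or parental libraries 3 and 4 left out (an alternative chosen after seeing the data, as was leaving out Spl-primed library 3 with parental library 4), and 0 at an absolute log2 fold change over 1. The 3 called higher between Spl-primed and parental cells became 0 at that threshold. The cause was not tested, beyond what a stricter threshold does by its construction.

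Leaving out 1 library at a time gave 2 to 3 called higher and 0 to 1 lower between Tu-primed and Spl-primed cells, 3 higher and 1 to 2 lower between Tu-primed and parental cells, and 3 higher and 0 lower between Spl-primed and parental cells. The Cd44 variable-exon differences then ran from 0.659 to 3.19, from 2.76 to 3.82 and from 0.0789 to 2.61 percentage points in the 3 comparisons, where 3 against 4 libraries cannot give a p below 0.0571. By CPM in place of TPM, the Has2 share of the synthases was 95.5% in Spl-primed and 93.6% in parental cells.

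With the replicate number as a block, the count called lower between Tu-primed and Spl-primed cells was 0 (Has3, adjusted p = 0.0712), 2 were called higher (Cemip lost, adjusted p = 0.0571), and no other call changed. No source ties a number to a shared culture or day. Correlations of same-numbered libraries ran from 0.084 to 0.148 between Tu-primed and parental cells, where 3 of 4 libraries matched their own number best. They ran from -0.164 to 0.016 between Tu-primed and Spl-primed and from -0.156 to 0.072 between Spl-primed and parental cells, where none did in either.

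Signs of differences that were never called turned for Hyal2 between Tu-primed and Spl-primed cells (0.05) and Hyal1 between Spl-primed and parental cells (-0.18), both with DESeq2 and length offsets. They turned for Cd44 between Tu-primed and parental cells (-0.03 with DESeq2 and length offsets, with Spl-primed library 3 and parental library 4 left out, or with parental library 4 alone left out, and -0.05 without parental libraries 3 and 4). Between Spl-primed and parental cells, Cd44 became 0.01 with at least 10 counts in every library or without parental library 1, 0.02 with upper-quartile factors or without Spl-primed library 3, and 0.03 with protein-coding transcripts only or without parental library 2. Hmmr there became -0.04 without parental libraries 3 and 4 and -0.01 without parental library 4 or Spl-primed library 1. With 1 library left out, Cd44 ran from -0.03 to 0.06 between Tu-primed and parental cells and from -0.06 to 0.03 between Spl-primed and parental cells, and Hmmr from -0.01 to 0.06 in the latter. Depth limits Has1, Hyal1, Cemip and Has3, with at most 2, 30, 202 and 174 counts in a library.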
